A study of Homo sapiens with 9 samples.

Results

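Iron handling and ferroptosis were followed through 10 genes among the 58735 genes of the count table. They were taken by exact gene symbol and each symbol matched a single row. The genes are the ferritin subunits FTH1 and FTL, the ferritin cargo receptor NCOA4, the iron transporters TFRC, SLC11A2 and SLC40A1, the iron sensor IREB2, and the lipid and ferroptosis genes ACSL4, LPCAT3 and AIFM2. GPX4 and SLC7A11, the best known ferroptosis suppressors, were not part of the choice. RNA was sequenced from OVCAR3, an established human ovarian carcinoma line whose genotype the labels give as WT. It was kept in RPMI medium with serum and insulin, and RNA was taken after 72 h in culture. The 9 libraries form 3 groups of 3 replicates: cells with a scramble short hairpin RNA (shRNA), and cells with the GPX3 hairpin 76 or 78 (here sh76 and sh78). All groups carry a hairpin, so no group lacks one, and the labels do not say whether replicates came from separate cultures, so p-values measure the spread between these samples, which may be technical. GPX3 encodes a secreted glutathione peroxidase, and the design asks what its knockdown does in these cells.

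Cells take up transferrin-bound iron through the transferrin receptor (TFRC), move it from the endosome to the cytosol through DMT1 (SLC11A2), store it in ferritin cages made of heavy (FTH1) and light (FTL) chains, and export it through ferroportin (SLC40A1). NCOA4 delivers ferritin to the lysosome, where the stored iron is released. Iron-regulatory proteins, one of which is encoded by IREB2, bind hairpins called iron-responsive elements in several of these mRNAs. An element in the 5′ untranslated region (UTR) lets them block translation, and elements in the 3′ UTR let them stabilise the mRNA. Ferroptosis is a form of cell death driven by iron-dependent oxidation of polyunsaturated phospholipids. ACSL4 and LPCAT3 place such fatty acids into phospholipids, and AIFM2 (FSP1) regenerates reduced coenzyme Q, which traps lipid radicals.

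The iron-responsive elements are shown because they are the sequences through which FTL and the iron transporters are known to be regulated. GENCODE 29 transcripts (GRCh38) were searched for a bulged C, 5 bases, the loop CAGTGN and 5 bases that pair with the first 5. Only the transcribed strand was read. The search ran over all protein-coding transcripts. Of the 10 genes, matches were reported only for the 9 with a RefSeq promoter entry, all but FTH1, so those of FTH1 are not shown. FTL held a fully paired match in its 5′ UTR at chr19:48965335-48965363 (plus strand). SLC40A1 held one in its 5′ UTR at chr2:189580661-189580689 (minus strand). TFRC held 4 in its 3′ UTR, on the minus strand of chromosome 3, at chr3:196050979-196051007, chr3:196050575-196050603, chr3:196050510-196050538 and chr3:196050463-196050491. SLC11A2 held a match with 4 of the 5 pairs in the 3′ UTR of 5 transcripts, at chr12:50988269-50988297 (minus strand). They read, 5′ to 3′ on the transcript and with T for U, with the bulged C and the loop in capitals:
FTL 5′ UTR: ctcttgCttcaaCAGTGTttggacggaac
SLC40A1 5′ UTR: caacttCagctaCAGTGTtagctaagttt
TFRC 3′ UTR, element 1: aattatCggaagCAGTGCcttccataatt
TFRC 3′ UTR, element 2: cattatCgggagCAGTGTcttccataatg
TFRC 3′ UTR, element 3: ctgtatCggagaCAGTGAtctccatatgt
TFRC 3′ UTR, element 4: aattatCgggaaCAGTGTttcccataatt
SLC11A2 3′ UTR: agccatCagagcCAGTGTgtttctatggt
A fully paired match was present in 291 of 19702 protein-coding genes (1.48%) and a match with at least 4 pairs in 2202 (11.2%). Matches with 4 pairs were also found in the 3′ UTR of IREB2 and across an exon junction in the coding part of AIFM2. A match describes the letters and is not a shown binding site.

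Libraries held 14652965 to 21327562 counts, and GPX3 fell with both hairpins, from 133 ± 34.8 CPM (TMM-scaled counts on a common library size, mean ± SD, n = 3) with scramble to 55.9 ± 0.852 with sh76 (log2 fold change −1.25, edgeR adjusted p = 0.00264) and 30.6 ± 4.01 with sh78 (−2.12, adjusted p = 0.000125). The line kept its epithelial ovarian markers: 9 of 10 had a mean of at least 1 FPKM, a level per gene length and library size, all but ESR1. Their summed level was 2032 to 2307 FPKM with scramble, 1778 to 2069 with sh76 and 1674 to 1829.6 with sh78, so it was lower in every sh78 library than in any scramble library. Its part in the results was not tested. No leukocyte (0 of 6), endothelial (0 of 3) or erythroid (0 of 5) marker and 1 of 6 fibroblast markers (COL1A1) reached that mean, and the hemoglobin genes HBA2 and HBB were at 0 throughout. Leukocyte markers summed to 0.394 to 0.844 FPKM with scramble, 0.822 to 0.966 with sh76 and 1.06 to 1.3 with sh78. In bulk RNA, fewer cells with a transcript and less transcript per cell cannot be told apart.

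Per gene length, FTH1 was the most abundant of the 10, with a mean of 687 FPKM over the 9 libraries (575 to 922) and rank 26 among 13709 protein-coding genes tested. FTL followed at 221 FPKM (168 to 274, rank 103), TFRC at 118 (105 to 130.5, rank 239) and NCOA4 at 49.5 (43.2 to 55.9, rank 734). The ranges of these 4 genes did not overlap with each other or with the rest. SLC11A2 at 9.87 FPKM, ACSL4 at 8.78, IREB2 at 8.41 and SLC40A1 at 6.81 formed a middle group in which each range overlapped the next. AIFM2 at 2.47 and LPCAT3 at 1.78 FPKM were the lowest, and their ranges overlapped. Heavy chain mRNA exceeded light chain mRNA in every library, with an FTH1 to FTL ratio of FPKM of 3.09 ± 0.26 with scramble, 3.36 ± 0.162 with sh76 and 2.9 ± 0.222 with sh78 (SD, n = 3).

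**Figure D1:**
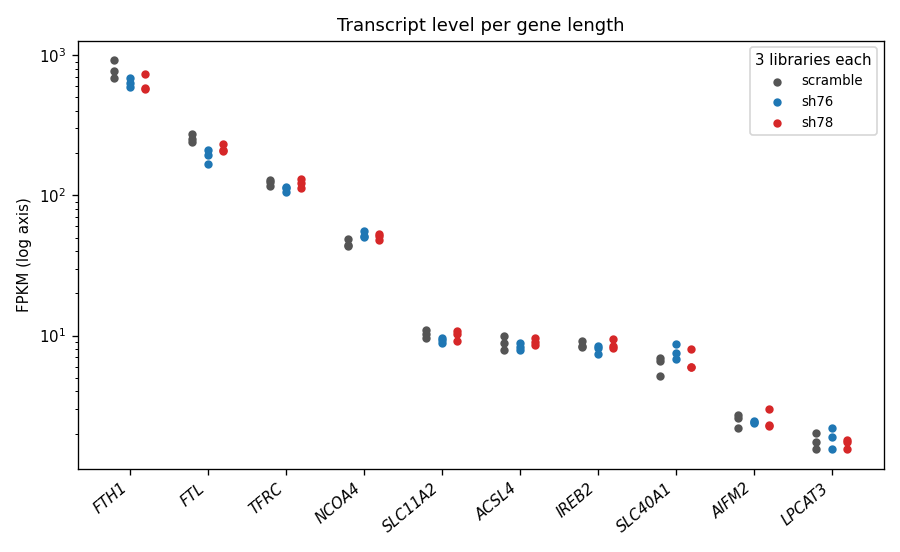
Level of each gene in FPKM on a log axis, with 3 libraries per group as points. FTH1, FTL, TFRC and NCOA4 lie apart from each other and above the rest at 687, 221, 118 and 49.5 FPKM on average, and AIFM2 and LPCAT3 lie lowest at 2.47 and 1.78.

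Ferritin light chain mRNA fell with sh76. Of the 10 genes, all of which passed the filter on low counts, 1 was called with sh76 (FTL, lower), at an edgeR adjusted p under 0.05 over 17023 genes tested. Among all genes 3.58% were called in that comparison. None was called with sh78, where 4.41% of all genes were. At an unadjusted edgeR p under 0.05 there were 3 of the 10 with sh78 (FTH1, FTL and NCOA4). There were 4 with sh76 and 3 for the mean of both hairpins. The share of all genes at that unadjusted threshold is not given, so these counts have no background here. For the mean of both hairpins against scramble 1 was called (FTL, lower; 4.04% of all genes), and for sh78 against sh76 none was (3.7% of all genes, with 1 of the 10, FTL, at an unadjusted p under 0.05). DESeq2 called 2 of the 10 for the mean of both hairpins, FTH1 and FTL, and its counts in the other comparisons equalled those of edgeR, as did those of limma on log2 FPKM in all 4. The hairpin comparisons share the scramble libraries, so they are not independent of each other. The median log2 fold change of the 10 genes was −0.10 with sh76 and 0.00 with sh78, beside 0.0064 and 0.00628 over all genes tested.

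Libraries with the same replicate number deviated together, and a fit that takes the number as a block called more. With the block, 6 of the 10 were called with sh76 (FTH1, FTL, TFRC and SLC11A2 lower, SLC40A1 and NCOA4 higher), beside 20.4% of all genes. With sh78 it called 3 (FTH1 and FTL lower, NCOA4 higher), beside 19.9%. For the mean of both hairpins it called 4 (FTH1 and FTL lower, NCOA4 and SLC40A1 higher), beside 20.3%, and for sh78 against sh76 it called 2 (FTL and TFRC higher with sh78), beside 18.3%. IREB2, ACSL4, LPCAT3 and AIFM2 were called in no comparison of either fit.

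**Figure D2:**
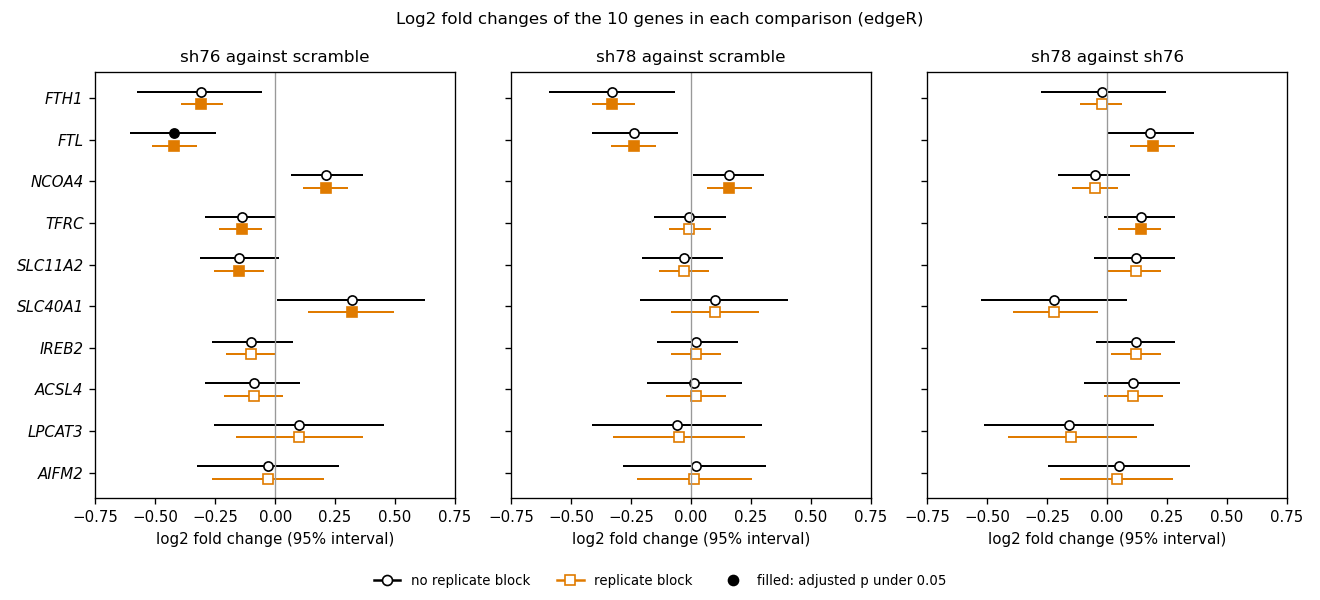
Log2 fold change of each gene with its 95% interval in 3 comparisons, without the replicate block (black circles) and with it (orange squares); filled symbols have an edgeR adjusted p under 0.05. FTL with sh76 at −0.42 is the only filled black circle, and FTH1, FTL and NCOA4 are filled for both hairpins with the block.

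FTL, the ferritin light chain (ENSG00000087086, chr19:48965301-48966878, plus strand), had 215, 223 and 241 CPM in scramble replicates 1 to 3. It had 149, 172 and 185 CPM with sh76, and 185, 184 and 207 CPM with sh78. Every library of either hairpin was below every scramble library, and the hairpin groups overlapped at 184 to 185 CPM. Its log2 fold change with sh76 was −0.42 (SE 0.08, 95% interval −0.60 to −0.25, edgeR adjusted p = 0.0104), a change of −25.4%. With sh78 it was −0.24 (SE 0.08, interval −0.41 to −0.06, adjusted p = 0.128), and 8.19e-05 with the replicate block. The sh76 call was kept in each of the 9 fits that left out a library (adjusted p 0.00873 to 0.0476). The call for the mean of both hairpins (−0.33, adjusted p = 0.0156) was lost without scramble replicate 2 (−0.35, adjusted p = 0.0573) and without scramble replicate 3 (−0.29, adjusted p = 0.0857).

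The difference between the hairpins for FTL was tested directly. It was 0.18 on the log2 scale for sh78 against sh76 (SE 0.08, interval 0.01 to 0.36, edgeR adjusted p = 0.272). With the replicate block it was 0.19 (SE 0.04, interval 0.10 to 0.28, adjusted p = 0.00191), and sh78 was higher in 3 of 3 same-numbered pairs, by 0.31, 0.10 and 0.16. That block call was lost without the libraries of replicate 1 (0.13, adjusted p = 0.139).

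FTH1, the heavy chain, which carries the ferroxidase activity of ferritin (ENSG00000167996, chr11:61959718-61967660, minus strand), had 1414, 1576 and 1873 CPM with scramble. It had 1218, 1294 and 1402 CPM with sh76, and 1178, 1186 and 1508 CPM with sh78. The sh76 libraries lay below all scramble libraries, and sh78 replicate 3 lay inside the scramble range. Replicate 3 was the highest library in each group. The log2 fold change was −0.31 with sh76 (SE 0.12, interval −0.57 to −0.06, edgeR adjusted p = 0.188) and −0.33 with sh78 (SE 0.12, interval −0.59 to −0.07, adjusted p = 0.164). With the replicate block the same sizes had an SE of 0.04 and adjusted p-values of 3.47e-07 and 6.13e-08, and FTH1 fell in both comparisons. Within same-numbered pairs it was lower in 3 of 3 with each hairpin: by −0.22, −0.28 and −0.42 on the log2 scale with sh76, and by −0.26, −0.41 and −0.31 with sh78.

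The FTH1 block calls held when the libraries of each replicate number were left out in turn, with adjusted p from 2.39e-05 to 0.000806 for sh76 and 1.39e-05 to 0.000352 for sh78. Without the block, leaving out sh78 replicate 3 alone gave a call for sh78 (−0.46, adjusted p = 0.0381), and the mean of both hairpins was called without that library (−0.39, adjusted p = 0.0255) or without scramble replicate 1 (−0.41, adjusted p = 0.0469). FTH1 did not differ between hairpins beyond its error (−0.02, interval −0.27 to 0.24). Both chains have many processed copies in the genome. The 25 annotated FTH1 pseudogenes summed to 265 to 425 counts per library, 1.14% to 2.02% of FTH1, led by FTH1P2, and the 16 FTL pseudogenes to 10 to 18 counts, led by FTLP14. Reads split between a gene and its copies would make both values uncertain. With the copies added, the directions and calls were unchanged, but copies with so few counts could hardly move them. Any reads left uncounted because they match both are not covered by that sum, so the uncertainty remains.

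**Figure D3:**
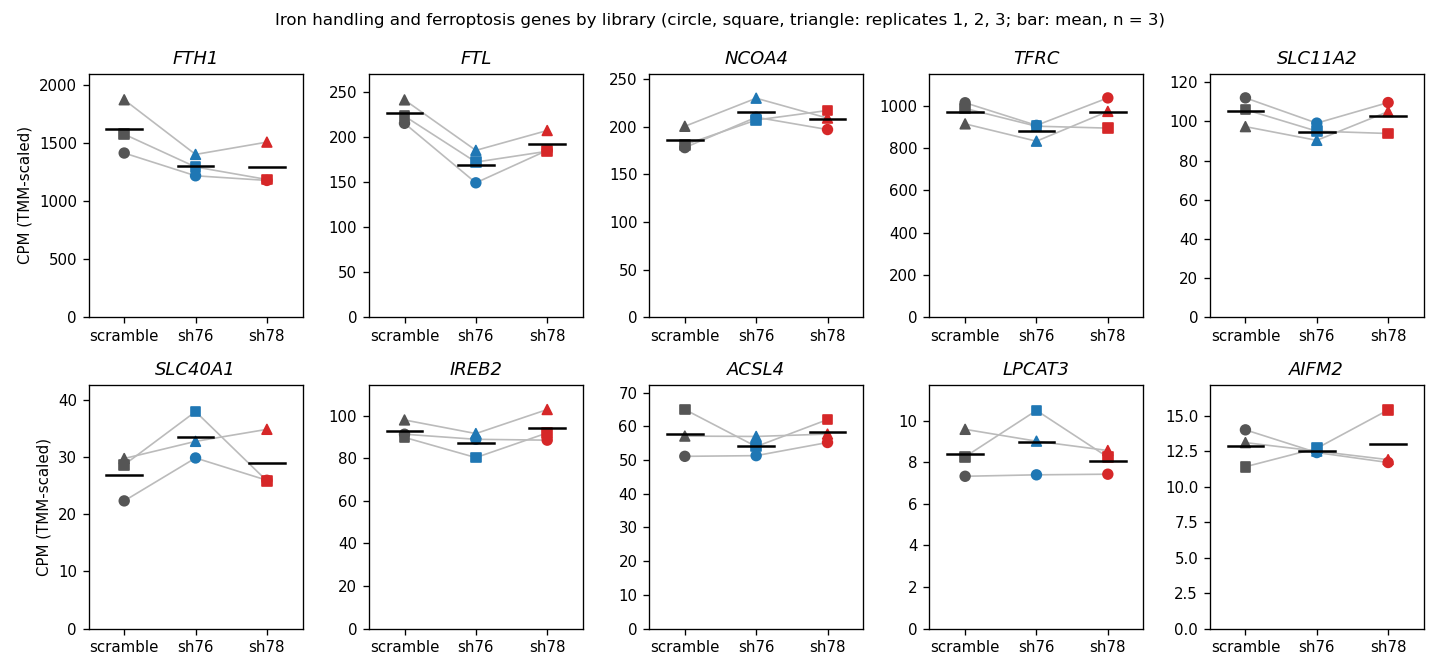
TMM-scaled CPM of each gene by library, with grey lines joining libraries of the same replicate number and black bars at group means. FTL is below every scramble library in all 6 hairpin libraries. On each line FTH1 is lower at sh76 than at scramble, from 1414 to 1218, 1576 to 1294 and 1873 to 1402 CPM.

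NCOA4, the receptor that carries ferritin to the autophagosome (ENSG00000266412, chr10:46005088-46030714, minus strand), ran the other way. It had 178, 181 and 200.4 CPM with scramble, 209.9, 207 and 229.9 CPM with sh76, and 197, 217 and 209 CPM with sh78. All sh76 libraries were above all scramble libraries, while sh78 replicate 1 lay inside the scramble range. The log2 fold change was 0.21 with sh76 (SE 0.07, interval 0.07 to 0.36, edgeR adjusted p = 0.111) and 0.16 with sh78 (SE 0.07, interval 0.01 to 0.30, adjusted p = 0.248). With the replicate block these were called, at adjusted p = 0.000415 and 0.00877, and NCOA4 was higher in 3 of 3 same-numbered pairs with each hairpin. The block call for sh76 held without each replicate number in turn (adjusted p 0.00808 to 0.0184). That for sh78 was lost without replicate 1 (0.16, adjusted p = 0.0692) and without replicate 2 (0.10, adjusted p = 0.236).

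The ratio of NCOA4 to FTH1, as FPKM, was 0.0625, 0.0572 and 0.0533 with scramble. It was 0.0857, 0.0798 and 0.0816 with sh76 and 0.0832, 0.091 and 0.0691 with sh78. Every hairpin library was above every scramble library, and the means were 0.0577 ± 0.00465, 0.0824 ± 0.00305 and 0.0811 ± 0.0111 (SD, n = 3). The ratio was formed after the single genes had been seen and is a description; an exact two-sided permutation test of 3 against 3 libraries cannot give a p below 0.1. The deposited data are mRNA levels, and ferritin protein and its turnover were not measured in them.

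**Figure D4:**
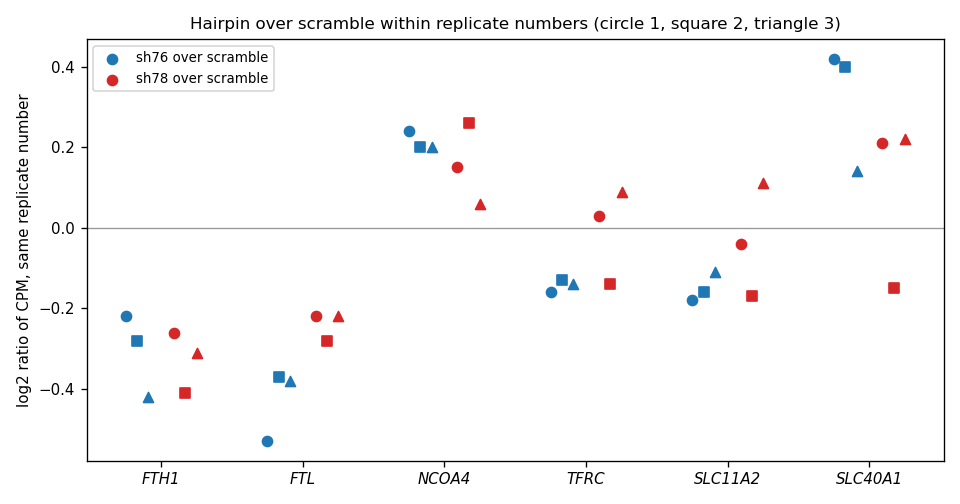
Log2 ratio of CPM between a hairpin library and the scramble library of the same replicate number for the 6 genes of ferritin and iron transport, with each marker shape a replicate number. FTH1 and FTL are below 0 and NCOA4 above 0 in all 3 pairs of each hairpin, whereas TFRC, SLC11A2 and SLC40A1 keep a single side of 0 with sh76 and lie on both sides with sh78.

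TFRC, the transferrin receptor (ENSG00000072274, chr3:196027183-196082189, minus strand), carries the 3′ UTR elements printed above. It had 1015, 988 and 915 CPM with scramble, 908, 904 and 833 CPM with sh76, and 1038, 895 and 974 CPM with sh78. The sh76 libraries were all below the scramble libraries, and the sh78 libraries spanned them. The log2 fold change with sh76 was −0.14 (SE 0.07, interval −0.29 to 0.00, edgeR adjusted p = 0.296), and −0.14 with an adjusted p of 0.0137 with the replicate block. That block call was lost without replicate 1 (adjusted p = 0.107) and without replicate 3 (adjusted p = 0.0721). With sh78 the value was −0.01 (interval −0.15 to 0.14). The hairpins differed by 0.14 (sh78 higher, adjusted p = 0.345, and 0.0196 with the block), and the block call for that difference was lost without replicate 1 (0.10, adjusted p = 0.28) and without replicate 3 (0.09, adjusted p = 0.299).

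SLC11A2, the divalent metal transporter DMT1 (ENSG00000110911, chr12:50979401-51028566, minus strand), had 112, 106 and 97.3 CPM with scramble. It had 99.1, 95 and 90.3 CPM with sh76 and 109.6, 93.8 and 105 CPM with sh78. The groups overlapped, because scramble replicate 3 lay below sh76 replicate 1. The log2 fold change was −0.15 with sh76 (SE 0.08, edgeR adjusted p = 0.338, and 0.0321 with the replicate block) and −0.03 with sh78 (interval −0.20 to 0.13). The block call was lost without any of the replicate numbers 1, 2 or 3 (adjusted p 0.152, 0.108 and 0.0725).

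SLC40A1, ferroportin, the cellular iron exporter (ENSG00000138449, chr2:189560579-189583758, minus strand), had 22.3, 28.6 and 29.7 CPM with scramble. It had 29.8, 37.9 and 32.7 CPM with sh76 and 25.9, 25.8 and 34.8 CPM with sh78. The sh76 libraries were above the scramble libraries, though narrowly at the nearest point, and the sh78 libraries overlapped both groups. The log2 fold change was 0.32 with sh76 (SE 0.14, interval 0.01 to 0.62, edgeR adjusted p = 0.264, and 0.00779 with the replicate block) and 0.10 with sh78 (interval −0.21 to 0.40, adjusted p = 0.809). The sh76 block call was lost without replicate 1 (0.27, adjusted p = 0.103) and without replicate 2 (0.26, adjusted p = 0.0742). For the mean of both hairpins the block gave 0.21 (adjusted p = 0.0499), which no fit without a replicate number kept (adjusted p 0.0601 to 0.312).

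Of the genes shown with a fully paired element, FTL had log2 fold changes below 0 with each hairpin. With sh76, TFRC was below 0 and SLC40A1 above 0. With sh78, the 95% intervals of TFRC (−0.15 to 0.14) and SLC40A1 (−0.21 to 0.40) spanned 0. Without the block only FTL with sh76 was called. The block calls of SLC40A1 and TFRC with sh76 were lost when single replicate numbers were left out. FTH1, whose matches were not reported, is not among these genes and had −0.31 and −0.33 with sh76 and sh78. FTL, with its element in the 5′ UTR, had −0.42 and −0.24 with sh76 and sh78, whereas SLC40A1, also with a 5′ UTR element, had 0.32 and 0.10. TFRC, with elements in the 3′ UTR, had −0.14 and −0.01. These are differences in mRNA level, and the elements in 5′ UTRs act on translation, which was not measured in the deposited data.

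IREB2, which encodes iron-regulatory protein 2 (ENSG00000136381, chr15:78437431-78501456, plus strand), had 93.1 ± 4.34 CPM with scramble, 87 ± 5.88 with sh76 and 94.6 ± 7.61 with sh78 (SD, n = 3). The groups overlapped, and the log2 fold changes were −0.10 (95% interval −0.26 to 0.07) and 0.02 (−0.14 to 0.19). ACSL4, the acyl-CoA synthetase that activates arachidonic acid (ENSG00000068366, chrX:109624244-109733403, minus strand), had 57.8 ± 6.97, 54.1 ± 2.83 and 58.3 ± 3.45 CPM, and fold changes of −0.09 (−0.29 to 0.10) and 0.01 (−0.18 to 0.21) on the log2 scale. LPCAT3, a lysophospholipid acyltransferase (ENSG00000111684, chr12:6976186-7018510, minus strand), had 8.4 ± 1.13, 8.98 ± 1.56 and 8.09 ± 0.588 CPM, with log2 fold changes of 0.10 (−0.25 to 0.45) and −0.06 (−0.41 to 0.29). AIFM2 (ENSG00000042286, chr10:70098223-70132934, minus strand) had 12.8 ± 1.31, 12.5 ± 0.177 and 13 ± 2.09 CPM, with log2 fold changes of −0.03 (−0.32 to 0.26) and 0.02 (−0.28 to 0.31). For LPCAT3 and AIFM2 the intervals are wide at 114 to 217 and 183 to 263 counts per library.

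The libraries carry no strand, and LPCAT3 and AIFM2 overlap more abundant genes on the opposite strand. EMG1 had 319% to 537% and C1S 55.3% to 99.2% of the counts of LPCAT3, and H2AFY2 had 537% to 824% of those of AIFM2, so their values are uncertain. BEST1, which overlaps FTH1, reached at most 0.177% of the counts of FTH1.

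For the ferroptosis suppressors left out of the choice, SLC7A11, the cystine transporter, fell with both hairpins, from 46.3 ± 10.5 CPM to 29.2 ± 1.61 with sh76 (log2 fold change −0.67, edgeR adjusted p = 0.0177) and 26 ± 3.1 with sh78 (−0.83, adjusted p = 0.00437). GPX4, which reduces lipid peroxides in membranes, had 239 ± 28.5 CPM with scramble, 201 ± 10.3 with sh76 and 219 ± 12.1 with sh78, and a log2 fold change of −0.25 with sh76 (adjusted p = 0.107, and 0.00105 with the replicate block) and −0.12 with sh78 (adjusted p = 0.48).

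Over the 9 libraries, the protein-coding genes most like FTL in log2 CPM among 11042 with a mean of at least 1 FPKM were ISYNA1 (Pearson r 0.967), KDELR1 (0.966) and STXBP2 (0.966). FTH1 had r 0.827 with FTL and ranked 291. NCOA4 had r −0.513. The 9 points share groups, replicate numbers and library scaling, so these values are descriptions. RefSeq promoter windows of 300 bases (250 before to 50 after the start, GRCh38.p14) were searched on both strands for the antioxidant response element TGACNNNGC. It was present in 2 of 14 windows of the 9 genes with an entry, 1 of 2 for NCOA4 and the single window of AIFM2, and in 13.3% of all 35116 windows.

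Other genes of iron handling, heme and ferroptosis came from 7 lists of 127 genes, of which 116 were tested. Without the replicate block, 8 of the 116 were called with sh76 (2 higher and 6 lower), 6.9% beside 3.58% of all genes. With sh78, 8 were called, all lower, again 6.9% beside 4.41%. The genes called with both hairpins in that fit were ISCA2, FADS1 and SLC3A2, each lower. The share of all genes called with both is not given, and the hairpin comparisons share the scramble libraries. The median log2 fold change over the 116 genes was −0.04 with each hairpin, beside 0.0064 and 0.00628 over all genes tested. With the replicate block 35 were called with sh76 (14 higher and 21 lower), 30.2% beside 20.4% of all genes, and 33 with sh78 (8 higher and 25 lower), 28.4% beside 19.9%. The counts per list below are without the block unless it is named.

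**Figure D5:**
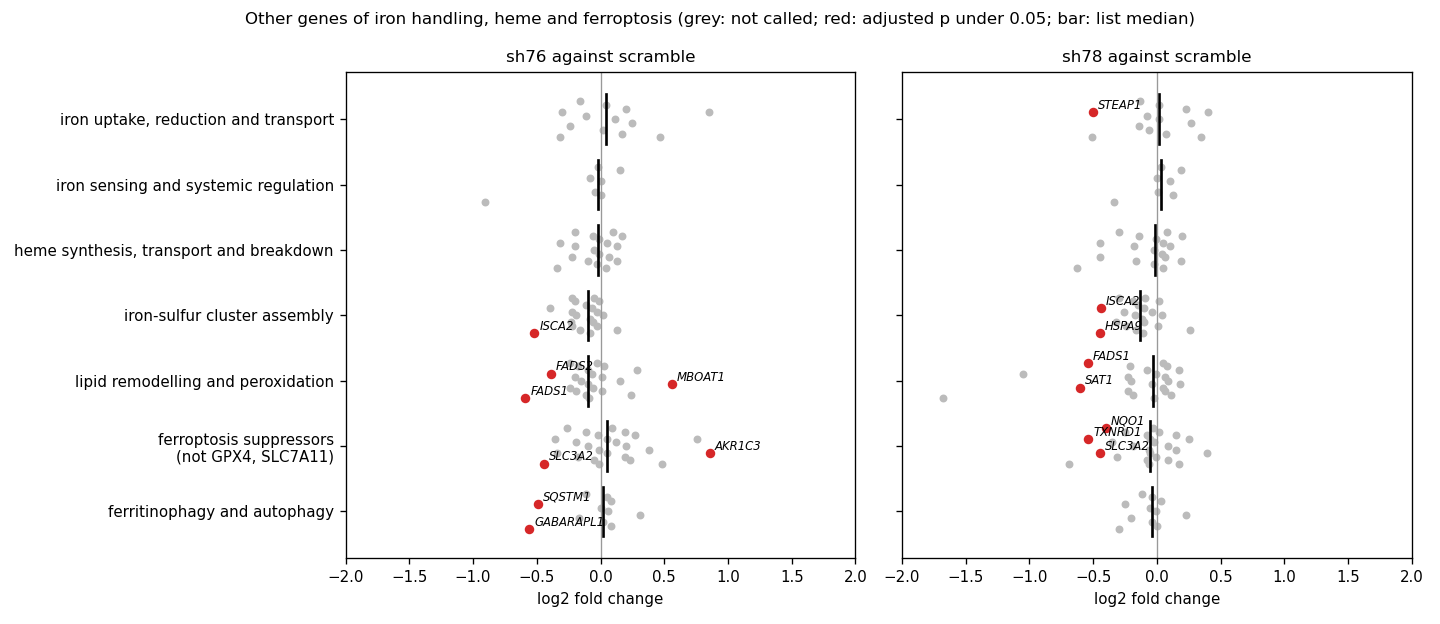
Log2 fold change of the tested genes of 7 lists with sh76 and sh78, with red points for genes at an edgeR adjusted p under 0.05 without the block and black bars at list medians. ISCA2, FADS1 and SLC3A2 are red and below 0 in both panels, and MBOAT1 at 0.56 and AKR1C3 at 0.86 are the 2 red points above 0, both with sh76.

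In iron-sulfur cluster assembly, 1 of 20 genes (5%) was called with sh76 and 2 (10%) with sh78, all lower. Among all genes 3.58% and 4.41% were called. With the block 4 and 4 were called, all lower, 20% each beside 20.4% and 19.9% of all genes. ISCA2, a mitochondrial assembly factor of iron-sulfur clusters, had 21.5 ± 0.728 CPM with scramble, 14.9 ± 1.38 with sh76 and 15.9 ± 1.39 with sh78 (SD, n = 3). On the log2 scale ISCA2 changed by −0.52 with sh76 (edgeR adjusted p = 0.0187) and by −0.44 with sh78 (adjusted p = 0.041). The sh76 call was lost without scramble replicate 2 (adjusted p = 0.0729), sh76 replicate 1 (0.0651) or sh76 replicate 3 (0.0506), and the sh78 call was lost in 8 of 9 fits without a library, all but that without sh76 replicate 1 (adjusted p 0.0343 to 0.141 over the 9) and with only the compared groups fitted (0.0551). HSPA9, the mitochondrial chaperone of cluster transfer, fell with sh78 from 330.2 ± 10.4 to 241 ± 11 CPM (−0.45, adjusted p = 0.000743), with −0.22 for sh76 (adjusted p = 0.0571, and 6.42e-05 with the block).

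In lipid remodelling and peroxidation, 3 of 22 genes were called with sh76 (1 higher and 2 lower) and 2 with sh78 (both lower). With the block these were 6 (2 higher and 4 lower) and 9 (all lower). Without the block the shares were 13.6% and 9.09%, beside 3.58% and 4.41% of all genes. With it they were 27.3% and 40.9%, beside 20.4% and 19.9%. FADS1, the desaturase that makes arachidonic acid, fell from 167 ± 24.1 CPM to 111 ± 12.2 with sh76 (−0.59, edgeR adjusted p = 0.00919) and 115 ± 7.46 with sh78 (−0.54, adjusted p = 0.0112). Its sh78 call was lost without scramble replicate 2 (−0.50, adjusted p = 0.0541). FADS2, the desaturase that opens that pathway, fell with sh76 (−0.39, adjusted p = 0.00863), a call lost without sh76 replicate 2 (−0.38, adjusted p = 0.0514), and had −0.23 with sh78 (adjusted p = 0.106, and 0.000399 with the block). MBOAT1, which adds monounsaturated fatty acids to phospholipids, rose with sh76 (0.56, adjusted p = 0.00568) and had 0.05 with sh78. SAT1, a polyamine acetyltransferase, fell with sh78 (−0.60, adjusted p = 0.00457) and had 0.01 with sh76.

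Among the ferroptosis suppressors, 2 of 25 were called with sh76 (1 higher and 1 lower) and 3 with sh78 (all lower). With the block these were 12 (7 higher and 5 lower) and 7 (2 higher and 5 lower). Without the block the shares were 8% and 12%, beside 3.58% and 4.41% of all genes. With it they were 48% and 28%, beside 20.4% and 19.9%. SLC3A2, the partner chain of SLC7A11 in the cystine transporter, fell from 368 ± 30.1 CPM to 271 ± 8.56 with sh76 (−0.44, edgeR adjusted p = 0.00315) and 269 ± 17.8 with sh78 (−0.45, adjusted p = 0.00209), and all 9 fits without a library kept both calls. TXNRD1, thioredoxin reductase, fell with sh78 (−0.54, adjusted p = 0.00162) and had −0.19 with sh76 (adjusted p = 0.229, and 0.000571 with the block). NQO1, a quinone reductase, fell with sh78 (−0.40, adjusted p = 0.0155) and had 0.19 with sh76 (adjusted p = 0.261, and 0.00358 with the block). The NQO1 call was lost without scramble replicate 3 (adjusted p = 0.0723), sh78 replicate 1 (0.0588) or sh78 replicate 2 (0.0576). AKR1C3, an aldo-keto reductase with near-identical paralogs, rose with sh76 from 2.36 ± 0.219 to 4.31 ± 0.544 CPM (0.86, adjusted p = 0.0264). Without a library, 5 of 9 fits did not keep the AKR1C3 call, those without any of the scramble libraries, sh76 replicate 1 or sh76 replicate 3 (adjusted p up to 0.114).

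In ferritinophagy and autophagy, 2 of 11 genes were called with sh76 by edgeR without the block, both lower. DESeq2 called 3 with sh76, and limma called 1 at either pseudocount. With sh78, 0 were called by edgeR without the block, DESeq2 or limma (4 at an unadjusted edgeR p under 0.05). With the block 3 were called with sh76 (1 higher and 2 lower) and 4 with sh78 (1 higher and 3 lower). Without the block the shares in edgeR were 18.2% and 0%, beside 3.58% and 4.41% of all genes. With it they were 27.3% and 36.4%, beside 20.4% and 19.9%. SQSTM1, the autophagy receptor p62, fell with sh76 from 189 ± 11.6 to 135 ± 9.76 CPM (−0.49, edgeR adjusted p = 0.00177) and had −0.20 with sh78 (adjusted p = 0.133, and 0.00121 with the block). GABARAPL1, an ATG8 family protein of the autophagosome, fell with sh76 (−0.56, adjusted p = 0.0216), a call lost without scramble replicate 2 (0.0855), scramble replicate 3 (0.0958), sh76 replicate 1 (0.0547) or sh76 replicate 2 (0.102), and with limma on log2 FPKM at either pseudocount (0.0554). In iron uptake, reduction and transport, 0 of 13 were called with sh76 by edgeR without the block, DESeq2 or limma (2 at an unadjusted edgeR p under 0.05) and 1 with sh78: STEAP1, of the family of endosomal metalloreductases, fell with sh78 (−0.50, adjusted p = 0.0202) and had −0.30 with sh76 (adjusted p = 0.172, and 0.00665 with the block). With the block 5 were called with sh76 (3 higher and 2 lower) and 4 with sh78 (2 higher and 2 lower). For this list the edgeR shares without the block were 0% and 7.69%, beside 3.58% and 4.41% of all genes. With it they were 38.5% and 30.8%, beside 20.4% and 19.9%. The STEAP1 call was lost without scramble replicate 2 (0.0796), sh78 replicate 2 (0.0892) or sh78 replicate 3 (0.0628). In iron sensing and systemic regulation (7 tested) and in heme synthesis, transport and breakdown (18 tested), 0 genes were called with either hairpin by edgeR without the block, DESeq2 or limma. At an unadjusted edgeR p under 0.05 there were 0 sensing genes with either hairpin, and 4 heme genes with sh76 and 2 with sh78. For the unadjusted counts of all these lists, the share of all genes at that threshold is not given, so they have no background here. With the block, 1 and 2 of the sensing genes and 4 and 3 of the heme genes were called with sh76 and sh78. As shares these were 14.3% and 28.6%, and 22.2% and 16.7%, beside 20.4% and 19.9% of all genes.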

How the data were processed

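Poly-A RNA of 9 OVCAR3 libraries was sequenced with non-directional kits, per the labels' protocols. Per the submitters' processing notes, HISAT2 2.0.5, featureCounts 1.5.0-p3 and hg38 were used; their settings and the annotation are not given in the sources used here. The authors deposited raw counts per gene and FPKM values; whole numbers with a different total in each library mark the former as counts. All 58735 identifiers were found in GENCODE 29 with the same start and end (100%).

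The test used edgeR 4.0.16 (R 4.3.3) on the counts: filterByExpr (minimum count 10, minimum total 15) kept 17023 genes, then TMM scaling and robust quasi-likelihood F tests with 1 coefficient per group and 6 residual degrees of freedom. The 4 contrasts were adjusted by Benjamini-Hochberg over all genes tested, with called meaning an adjusted p under 0.05. The common biological coefficient of variation was 10.4%. Fold changes of the alternatives came from DESeq2 1.42.0 on counts and limma 3.58.1 on log2(FPKM + pseudocount), with pseudocounts of 1 and 0.1. The edgeR scripts were also tested on simulated data. Counting precision is limited most for the genes with fewest counts, LPCAT3 and AIFM2.

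Replicate numbers come from the labels. Deviations from group means correlated positively in all 9 same-numbered pairs of libraries from different groups (r 0.14 to 0.39), so the numbers were taken to pair the libraries. In 18 differently numbered pairs r was −0.31 to 0.06. Because group means were subtracted, positive same-numbered values push these below 0, so they are not separate support. The fit with replicate number as a block has 4 residual degrees of freedom. No libraries of a group were duplicates (chi-square per degree of freedom 5.23 to 11.8).

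The 10 genes, the 7 lists of other genes and the tests were chosen with earlier results of these data known. Named were all 10 genes, GPX3, GPX4 and SLC7A11, the listed genes called with both hairpins in the same direction, up to 3 further called genes per list with the largest log2 fold change, and the 3 genes most like each gene called.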

Additional observations from a re-analysis of the deposited data

Results flagged for a closer look

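In a direct edgeR test of sh78 against sh76, 6 of the 116 listed genes of iron handling and ferroptosis differed between the hairpins. Each had an adjusted p under 0.05 without the replicate block. That was 5.17% of the listed genes, beside 3.7% of all genes. With the block 23 were called, 19.8% beside 18.3% of all genes. SLC48A1, a heme transporter of the endosome and lysosome, was higher with sh78 (log2 fold change 0.52, adjusted p = 0.026), with 103, 103 and 85.8 CPM with sh76 and 148, 149 and 120.5 CPM with sh78. The scramble libraries, at 139, 120.5 and 105 CPM, were above the sh76 libraries and overlapped those of sh78. With the block SLC48A1 was called in opposite directions against scramble, −0.32 with sh76 (adjusted p = 2.47e-06) and 0.20 with sh78 (adjusted p = 0.00196). SQSTM1 was also higher with sh78 (0.29, adjusted p = 0.0335).

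SAT1 (−0.61, adjusted p = 0.00511), NQO1 (−0.59, adjusted p = 0.00169), MBOAT1 (−0.51, adjusted p = 0.0092) and TXNRD1 (−0.35, adjusted p = 0.0281) were lower with sh78 than with sh76 in edgeR. For NQO1 every sh78 library (63, 70 and 78.4 CPM) was below every scramble library (88.7, 89.3 and 101 CPM), and every sh76 library (102, 104 and 113 CPM) was above them. The SAT1, NQO1 and MBOAT1 differences were called in all 9 fits that left out a library. The difference was lost without a library for SLC48A1 in 5 fits (scramble replicate 2, sh76 replicates 2 and 3, sh78 replicates 1 and 2, adjusted p up to 0.1), for TXNRD1 in 4 (sh76 replicates 2 and 3, sh78 replicates 1 and 2, up to 0.114) and for SQSTM1 in 5 (sh76 replicates 1 and 2 and each sh78 replicate, up to 0.145). These 3 differences were also lost with limma on log2(FPKM + 1), at adjusted p = 0.0566 for SLC48A1, 0.0821 for TXNRD1 and 0.0655 for SQSTM1, and with a pseudocount of 0.1.

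Among the 10 genes, the hairpin difference of FTL (0.19) and of TFRC (0.14), both higher with sh78, was called only with the replicate block. GPX3 itself was lower with sh78 than with sh76 (log2 fold change −0.86, adjusted p = 0.0194), and its part in these differences was not tested.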

How the results depend on the processing

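Against 8 alternatives and 9 left-out libraries, the call of FTL with sh76 held throughout. The replicate block moved the number of the 10 genes called to 6 with sh76, 3 with sh78, 4 for the mean of both hairpins and 2 for sh78 against sh76, that of all genes to 3467, 3388, 3462 and 3117, and that of the listed genes to 35, 33, 36 and 23; it ended no call of a named gene. Leaving out 1 replicate number from the block fit gave 3 to 4 of the 10 called with sh76 and 2 to 3 with sh78. It gave 3 for the mean of both hairpins and 1 to 3 for sh78 against sh76. The share of all genes called in those reduced fits is not given. Without the filter on low counts, 2 of the 10 were called with sh76, 2 with sh78 and 2 for the mean (FTH1 at adjusted p = 0.00181 and 0.000849 with sh76 and sh78, FTL at 0.0317 with sh78), 1149, 1212, 1181 and 1125 of all genes in the 4 comparisons, and 13 and 10 listed genes with sh76 and for sh78 against sh76. DESeq2 called 2 of the 10 for the mean. Limma on log2(FPKM + 1) called 383 genes with sh76, 448 for the mean and 382 for sh78 against sh76, with 3 listed genes in the last, and with 0.1 in place of 1 it called 367, 443 and 374, again with 3. The causes were not tested.

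Without single libraries, the number called ran from 0 to 1 of the 10 with sh78 (1 without sh78 replicate 3), and 0 to 2 for the mean (0 without scramble replicate 2 or 3). Of all genes, 237 to 655 were called with sh76, 418 to 810 with sh78, 299 to 726 for the mean and 273 to 780 for sh78 against sh76. Of the listed genes, 5 to 11, 5 to 9, 5 to 11 and 3 to 7 were called. Small uncalled log2 fold changes crossed 0: LPCAT3 (−0.03 to 0.21) and AIFM2 (−0.12 to 0.03) with sh76; TFRC (−0.06 to 0.05), SLC40A1 (−0.06 to 0.17), SLC11A2 (−0.09 to 0.03), IREB2 (−0.05 to 0.06), ACSL4 (−0.07 to 0.10), LPCAT3 (−0.15 to 0.05) and AIFM2 (−0.12 to 0.09) with sh78; ACSL4 (−0.12 to 0.05), LPCAT3 (−0.07 to 0.12) and AIFM2 (−0.09 to 0.05) for the mean; FTH1 (−0.14 to 0.05) and AIFM2 (−0.09 to 0.12) for sh78 against sh76.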

Other observations

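Several genes of the lists had few or no counts in these libraries, and their overlap with other annotated genes was not checked. Of the listed genes, 11 did not pass the filter on low counts: TF (transferrin), HEPH, FTMT (mitochondrial ferritin), HAMP (hepcidin), HJV, TMPRSS6, ABCG2, FDX2 and the lipoxygenases ALOX5, ALOX12B and ALOX15B. Summed over all 9 libraries, TF had 43 counts, HEPH 8, HAMP 2, HJV 2 and FTMT 0. Among the lipoxygenases, which oxidise polyunsaturated fatty acids, ALOX15 was tested at 2.21 ± 0.377 CPM with scramble, 1.93 ± 0.32 with sh76 and 1.08 ± 0.39 with sh78 (SD, n = 3). The sh78 difference of ALOX15 was −1.05 on the log2 scale (edgeR adjusted p = 0.0732, and 0.0071 with the replicate block). ALOX15 was chosen here after its values were seen.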
